A study of Rattus norvegicus with 4 samples.

Results

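The genes described here encode neutrophil-attracting chemokines and fractalkine in NRK-52E, an epithelial cell line established from the kidney of a normal rat. They were chosen by symbol: 4 symbols were named (Cxcl1, Cxcl2, Cxcl6 and Cx3cl1), 3 of them were matched among the 17768 genes of the deposited table, and Cxcl6 was not analysed here. The symbols were picked with the difference between the groups already known, so the values for that difference are given as a description, without p-values. How many of the 3 each tool called is stated for the same purpose and is not independent evidence. The line was studied as 4 RNA sequencing libraries, 2 titled lv_nc and 2 titled lv_Mettl3. According to the protocols, a lentiviral vector (pLVX-IRES-Puro) delivered a mouse Mettl3 cDNA and stable cells were kept in puromycin; Mettl3 encodes the enzyme that writes N6-methyladenosine (m6A) on RNA. What nc stands for, what vector the lv_nc cells carried and whether a line is 1 clone are not stated in the sources used here, and all 4 libraries are labelled untreated. Nothing in the labels says that replicates came from separate cultures, so a p-value reflects the spread among these libraries alone, and that spread may be technical.

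Chemokines are small secreted proteins that direct leukocyte migration. Cxcl1 and Cxcl2 belong to the CXC chemokines that carry a glutamate-leucine-arginine motif and act through the receptor Cxcr2 to attract neutrophils; their genes lie side by side in a chemokine cluster, and their transcripts are short-lived and induced through NF-kB. Fractalkine, the product of Cx3cl1, is made as a membrane protein with its chemokine domain on a mucin stalk, is released by the proteases Adam10 and Adam17, and acts through Cx3cr1 on monocytes and lymphocytes. In kidney, injured tubular cells are a source of all of these proteins.

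The 250 bases before each gene's start are shown because the table bears on these genes as a set. They also allow short motif matches to be compared between the neutrophil chemokines and fractalkine. They are RefSeq sequences of build GRCr8, 5′ to 3′ on the gene's own strand, which is the minus strand for all 3 genes. The windows are chr14:17479322-17479571 for Cxcl1, chr14:17467256-17467505 for Cxcl2 and chr19:10242821-10243070 for Cx3cl1. Capitals mark matches to the NF-kB consensus in the first and second and to a TATA box (TATAAA) in the third.
Cxcl1: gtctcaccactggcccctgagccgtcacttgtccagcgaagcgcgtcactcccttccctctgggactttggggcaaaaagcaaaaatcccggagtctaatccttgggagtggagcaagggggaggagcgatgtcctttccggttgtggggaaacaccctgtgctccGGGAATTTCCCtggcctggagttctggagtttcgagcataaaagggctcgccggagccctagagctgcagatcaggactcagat
Cxcl2: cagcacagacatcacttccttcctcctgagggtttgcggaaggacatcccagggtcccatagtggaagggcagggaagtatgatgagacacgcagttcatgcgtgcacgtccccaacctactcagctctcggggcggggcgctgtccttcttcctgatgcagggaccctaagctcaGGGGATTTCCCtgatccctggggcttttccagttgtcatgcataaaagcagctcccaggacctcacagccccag
Cx3cl1: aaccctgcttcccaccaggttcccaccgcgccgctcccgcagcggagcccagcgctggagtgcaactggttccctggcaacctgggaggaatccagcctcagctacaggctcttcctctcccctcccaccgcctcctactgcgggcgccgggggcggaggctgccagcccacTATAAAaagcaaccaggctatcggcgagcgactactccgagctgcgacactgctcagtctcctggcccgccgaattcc

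Cxcl1 and Cxcl2 each held 1 stretch of 11 bases with 2 overlapping matches to the NF-kB consensus, searched on both strands. It was GGGAATTTCCC in Cxcl1, from 84 to 74 bases before the start, and GGGGATTTCCC in Cxcl2, from 74 to 64 bases before it. The Cx3cl1 window held 0 matches. Of 33465 RefSeq windows of that length, 6.33% held at least 1 match, as did 8.37% of the 12013 windows of genes in the deposited table. The exact letters TATAAA were found only in Cx3cl1, 78 bases before its start, against 12.9% of all windows and 7.06% of those of genes in the table. The Cxcl1 and Cxcl2 windows each hold cataaa between the NF-kB stretch and the start. It differs from TATAAA by 1 letter and was not searched for, so a lack of a TATA box in these windows is not shown. An AP-1 motif (TGANTCA, 6.34% of all windows and 4.76% of those of genes in the table) was in none of the 3, and a GC box (GGGCGG, 30.5% and 54.7%) was in Cxcl2 and Cx3cl1. A C/EBP motif (TTNNGNAA, 37.2% and 28.3%) was in Cxcl2 alone. These matches describe letters in these windows and show no binding.

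Recovered gene reads ranged from 15068898 to 16622255 per library. The deposited values are normalized read counts, that is, gene reads divided by 1 size factor per library. For Mettl3 itself, lv_nc gave 719 and 767 and lv_Mettl3 gave 757 and 700, so the titled gene did not separate the groups. Each direction given is therefore that of the library labelled lv_Mettl3 against the library labelled lv_nc. Whether transcripts of the mouse cDNA entered the rat count was not analysed here. The tissue label was checked against markers. The epithelial keratin gene Krt8 had 28296 to 33065 and the brush border enzyme gene Ggt1 2412 to 3757 normalized counts, while the proximal tubule endocytic receptor gene Lrp2 (0 to 1.95), the water channel gene Aqp1 (0 to 6.46) and E-cadherin, Cdh1 (0.923 to 8.79) were at or near 0. Of 13 proximal tubule markers 6 were matched, summing to 104 and 112 RPKM (defined with the levels) in lv_nc and 140 and 159 in lv_Mettl3, nearly all of it Ggt1, which DESeq2 called higher (adjusted p = 0.0345) and limma did not (0.378). That call ended without either lv_Mettl3 library.

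All 3 chemokine genes were higher in both lv_Mettl3 libraries than in either lv_nc library, by about the same factor. Cxcl1 (ENSRNOG00000002802) lies on the minus strand of chromosome 14, from 18743685 to 18745457 in the coordinates of the deposited table, whose build is not given in the sources used here. Its normalized counts were 474 (replicate 1) and 355 (replicate 2) for lv_nc, against 1199 (replicate 1) and 1156 (replicate 2) for lv_Mettl3. Both lv_Mettl3 libraries were high, and the lower of them was 2.44 times the higher lv_nc library. The means were 415 ± 83.7 and 1178 ± 30.2 (SD, n = 2 libraries per group), a log2 fold change of 1.52 (SE 0.17) on the log2(value + 1) scale used for fold changes throughout.

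Cxcl2 (ENSRNOG00000002792, chromosome 14, 18731378 to 18733391, minus strand), a paralog of Cxcl1 that acts on the same receptor, had 95.7 and 105 in lv_nc against 284 and 344 in lv_Mettl3. The groups did not overlap, and the lv_nc libraries were close to each other. The means were 100.5 ± 6.71 and 314 ± 42.4 (SD, n = 2), a log2 fold change of 1.63 (SE 0.19).

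Cx3cl1 (ENSRNOG00000016326, chromosome 19, 10644244 to 10653800, minus strand) had 126 and 205 in lv_nc against 508 and 495 in lv_Mettl3. Again the groups did not overlap, but here the lv_nc libraries stood apart, replicate 2 being 1.63 times replicate 1. The means were 165 ± 55.8 and 501 ± 9.09 (SD, n = 2), a log2 fold change of 1.64 (SE 0.26).

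**Figure D1:**
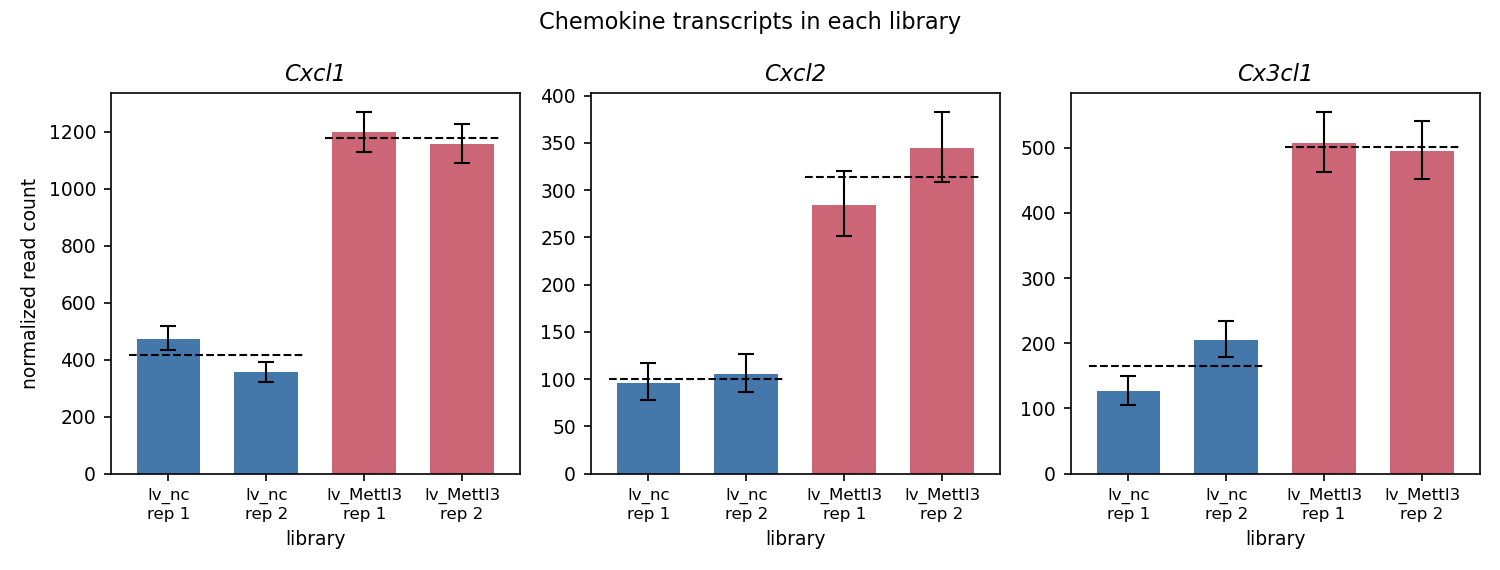
Normalized read count (linear axis from 0) of Cxcl1, Cxcl2 and Cx3cl1 in each of the 4 libraries; bars are libraries, error bars are 95% exact Poisson intervals of the reads (counting error only) and dashed lines are group means. In each panel both lv_Mettl3 bars stand above both lv_nc bars, and the lv_nc bars of Cxcl1 and Cx3cl1 differ in opposite directions.

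The fold changes of the 3 genes lay within 0.12 of one another on the log2 scale, less than the SE of any of them. They exceeded the log2 fold changes of 97.8% (Cxcl1), 98.4% (Cxcl2) and 98.4% (Cx3cl1) of the 16391 genes tested. The authors' deposited table gives log2 fold changes of 1.51, 1.64 and 1.60 for Cxcl1, Cxcl2 and Cx3cl1. Both lv_Mettl3 libraries were above both lv_nc libraries for 3 of 3 genes, against 23.5% of all genes tested, while 21.5% of all genes had both lv_Mettl3 libraries below. The limma test called 0 of the 3 at an adjusted p under 0.05, against 0.0183% of all genes (3 genes), and DESeq2 on the recovered reads called 3 of 3, against 2.52% of all genes called in either direction (318 of 12601) and 1.45% called higher (183). The edgeR test on the same reads called 0 of the 3, against 0.0381% of all genes (5 of 13113). Without lv_Mettl3 replicate 1, or without lv_Mettl3 replicate 2, DESeq2 called 1 of the 3, Cxcl1 in both cases. Since the genes were chosen for this difference, these counts support nothing further. In bulk RNA, more cells making a transcript and more transcript per cell cannot be told apart.

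The lv_nc replicate with the higher count was not the same for Cxcl1 and Cx3cl1. For Cxcl1, lv_nc replicate 1 had 485 reads (95% exact Poisson interval 433 to 518 in normalized counts) and replicate 2 had 385 (321 to 393), and the intervals do not meet. For Cx3cl1 the order was the opposite, with 129 reads (105 to 150) in replicate 1 and 222 (179 to 234) in replicate 2. For Cxcl2, with 98 reads (77.7 to 117) and 114 (86.8 to 126), the intervals overlap. In lv_Mettl3 the intervals of both libraries overlap for Cxcl1, Cxcl2 and Cx3cl1, for Cxcl2 only narrowly (251 to 320 and 308 to 383). Overlap of such intervals is not a test and does not show that the libraries agree. These intervals cover counting error only. Leaving out 1 library, the log2 fold change ranged from 1.31 to 1.73 for Cxcl1 and from 1.49 to 1.77 for Cxcl2. For Cx3cl1 it was 1.29 without lv_nc replicate 1 and 1.98 without lv_nc replicate 2, so the size of that difference turns most on which lv_nc library is used.

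Levels of different genes were compared per length, as RPKM, which divides the reads of a gene by its deposited length and by the gene reads of the library. Cxcl1 had the highest level in all 4 libraries, with 32.5 and 25.01 RPKM in lv_nc and 81.1 and 78.04 in lv_Mettl3. Cxcl2 came next, with 5.67 and 6.40 in lv_nc and 16.6 and 20.1 in lv_Mettl3, and Cx3cl1 was lowest, with 2.56 and 4.27 in lv_nc and 10.2 and 9.89 in lv_Mettl3. The order was the same in every library, and within a group neighbours in it did not overlap. By normalized counts alone Cx3cl1 stood above Cxcl2, because its gene model is 3127 bases long against 1072 for Cxcl2 and 926 for Cxcl1.

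The balance between the chemokines shifted little next to the spread between libraries. The Cxcl1 level was 5.73 and 3.91 times that of Cxcl2 in lv_nc and 4.89 and 3.89 times in lv_Mettl3, so the groups overlap. It was 12.7 and 5.86 times that of Cx3cl1 in lv_nc and 7.97 and 7.89 times in lv_Mettl3, again overlapping. The summed level of the 3 genes was 40.7 and 35.7 RPKM in lv_nc and 107.8 and 108.0 in lv_Mettl3. In lv_nc replicates 1 and 2, Cxcl1 stood at or above 82.0% and 76.8% of all genes by level, and Cx3cl1 at or above 40.4% and 45.1%. In lv_Mettl3 these shares were 93.7% and 93.3% for Cxcl1 and 59.4% and 59.1% for Cx3cl1.

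**Figure D2:**
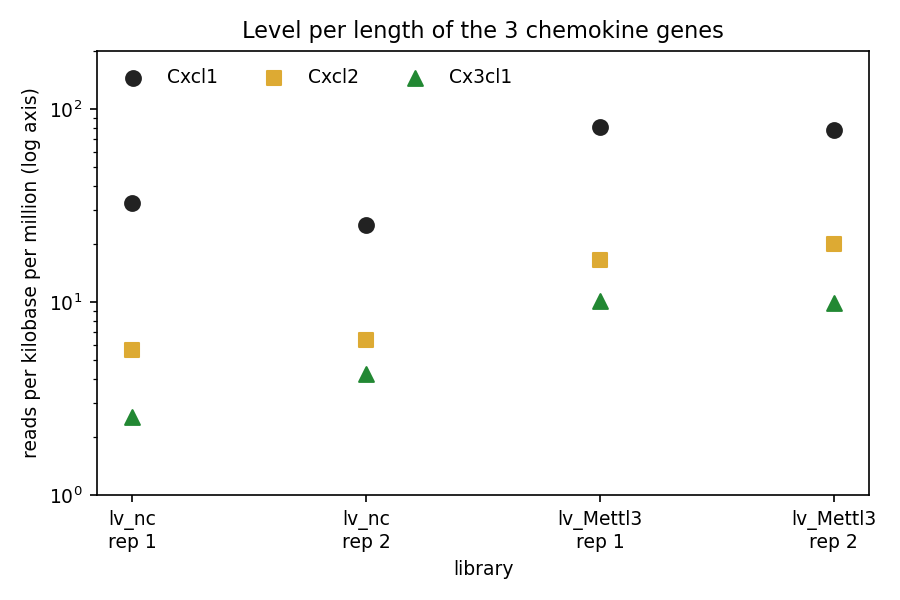
Level per length (RPKM, log axis) of Cxcl1, Cxcl2 and Cx3cl1 in each of the 4 libraries, 1 point per gene and library. The order Cxcl1, Cxcl2, Cx3cl1 holds in every library. The spacing between genes varies between the lv_nc libraries: Cxcl1 is 12.7 and 5.86 times Cx3cl1 there, and 7.97 and 7.89 times in lv_Mettl3.

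Among other chemokines, Cxcl3, a Cxcr2 ligand of the same cluster, had 4 reads in all. It was at 0 in both lv_nc libraries and at 1.06 and 3.10 normalized counts in lv_Mettl3, too low for its fold change to be interpreted. Cxcl1, Cxcl2 and Cxcl3 are related in sequence, and how reads matching more than 1 of them were counted is not given in the sources used here, so the split between Cxcl1 and Cxcl2 is uncertain. Cxcl17, a mucosal chemokine, had 27.4 ± 8.30 and 22.6 ± 7.07 (SD, n = 2) and was called by neither test. Cxcl5, Ppbp and Pf4 were not analysed here. Of the CXC chemokines of other types, limma tested 3 and called 1 higher, the Cxcr3 ligand Cxcl10, from 7511 ± 540 to 34817 ± 3282 (SD, n = 2, limma adjusted p = 0.0342). With any 1 library left out limma called 0 genes, while DESeq2 called Cxcl10 in all 4 such settings. DESeq2 called 2 of 3 higher, Cxcl10 and Cxcl11, where 1.45% of all genes were called higher by DESeq2 and 0.0183% by limma. Cxcl11, also a Cxcr3 ligand, rose from 70.9 ± 16.0 to 224 ± 38.9 (DESeq2 adjusted p = 0.000348, limma adjusted p = 0.322), and it was not called by DESeq2 without either lv_Mettl3 library (adjusted p = 0.192 and 1.0). Cxcl16, which like fractalkine is membrane-bound and shed, had 1942 and 2432 in lv_nc against 2263 and 2301 in lv_Mettl3, with overlapping groups.

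The receptors that these ligands act on, Cxcr1, Cxcr2 and Cx3cr1, were not analysed here. Of 4 other chemokine receptor genes tested, limma called 0, and DESeq2 called 1 of 3, lower, where 1.07% of all genes were called lower. This was Ackr3, a scavenging receptor that binds Cxcl12 and Cxcl11, which had 1475 and 2137 in lv_nc against 973 and 846 in lv_Mettl3. It fell by 0.99 on the log2 scale in DESeq2 (adjusted p = 0.000256, limma adjusted p = 0.378), and the call ended without lv_Mettl3 replicate 1 (adjusted p = 0.12) and without lv_Mettl3 replicate 2 (0.567).

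The proteases that release fractalkine were expressed in both groups. Adam10 had 4895 ± 1050 in lv_nc and 4510 ± 147 in lv_Mettl3, and Adam17 had 2124 ± 142 and 2492 ± 108 (SD, n = 2), neither of them called by either test. Of the 12 genes of the shedding list tested by limma, 0 were called, with a median log2 fold change of -0.09 against 0.01 for all genes tested. DESeq2 called 0 of 9 higher and 2 lower, where 1.45% of all genes were called higher and 1.07% lower. Timp3, an inhibitor of metalloproteinases that also blocks Adam17, had 277 and 438 in lv_nc against 138 and 113 in lv_Mettl3 (DESeq2 adjusted p = 0.00021, limma 0.372). Mmp14, a membrane-type metalloproteinase, fell from 5584 ± 838 to 3877 ± 302 (DESeq2 adjusted p = 0.0441, limma 0.408). Both calls held without lv_nc replicate 1 and ended without any other 1 library, at adjusted p of 0.0771, 0.346 and 0.16 for Timp3 without lv_Mettl3 replicate 1, lv_Mettl3 replicate 2 and lv_nc replicate 2. For Mmp14 they were 1.0, 1.0 and 0.127.

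Of 23 genes for cytokines, receptors and adaptors of the pathways that induce these chemokines, limma and DESeq2 each called 0 (DESeq2 tested 20). The list also holds Il1rn, which encodes an antagonist of the IL-1 receptor and not an inducer. At an unadjusted limma p under 0.05, 3 were higher and 0 lower, against 908 higher and 808 lower of all 16391 genes tested. The 3 were Il1rn (10.8 ± 5.61 in lv_nc, 41.8 ± 2.20 in lv_Mettl3), Il17ra (648 ± 70.3, 887 ± 4.22) and Il1r1 (1472 ± 116, 1813 ± 141; SD, n = 2). The median log2 fold change of the list was 0.08. The cytokine gene Il1b had 0 to 4.13 normalized counts across the libraries, and Il1a and Tnf were not analysed here. The most abundant gene of this list per length, the TNF receptor gene Tnfrsf1a, had 2521 ± 203 in lv_nc and 2382 ± 5.68 in lv_Mettl3.

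Among 16 genes for NF-kB subunits, kinases and inhibitors, limma called 0 and DESeq2 called 2, both higher, where 1.45% of all genes were called higher. The list median was 0.22 in log2 fold change, against 0.01 for all genes tested. For 9 of the 16 both lv_Mettl3 libraries were above both lv_nc libraries, against 23.5% of all genes tested. For 0 both were below, against 21.5%. Nfkbiz, an atypical IkB protein that acts in the nucleus as a cofactor of NF-kB, had 374 and 242 in lv_nc against 610 and 614 in lv_Mettl3 (DESeq2 log2 fold change 0.99, adjusted p = 0.00678, limma adjusted p = 0.386). Tnfaip3, which encodes the feedback inhibitor A20, had 164 and 198 in lv_nc against 350 and 314 in lv_Mettl3 (DESeq2 log2 fold change 0.88, adjusted p = 0.043, limma adjusted p = 0.378). The DESeq2 call of Tnfaip3 ended without any 1 library (adjusted p from 0.102 to 1.0) and with a replicate block (0.163). That of Nfkbiz held with a replicate block (0.0118) and without lv_nc replicate 1 (6.06e-06), and ended without lv_nc replicate 2 (0.141) and without lv_Mettl3 replicate 1 (0.978) or replicate 2 (1.0). The subunit gene Rela had 1426 and 1422 in lv_nc against 1525 and 1649 in lv_Mettl3, and Nfkbia, which encodes the inhibitor IkB alpha, had 643 and 836 against 803 and 887. Neither was called.

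Of 18 genes for m6A writers, erasers and readers, limma called 0 and DESeq2 called 1 higher, where DESeq2 called 1.45% of all genes higher. This was the writer adaptor gene Rbm15b, from 952 ± 123 to 1448 ± 164 (DESeq2 adjusted p = 0.0417, limma 0.399). With a replicate block its DESeq2 adjusted p was 0.0871. It was 0.0007 without lv_nc replicate 1, while leaving out lv_nc replicate 2, lv_Mettl3 replicate 1 or lv_Mettl3 replicate 2 gave 0.248, 1.0 and 1.0. The median log2 fold change of this list was 0.09.

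**Figure D3:**
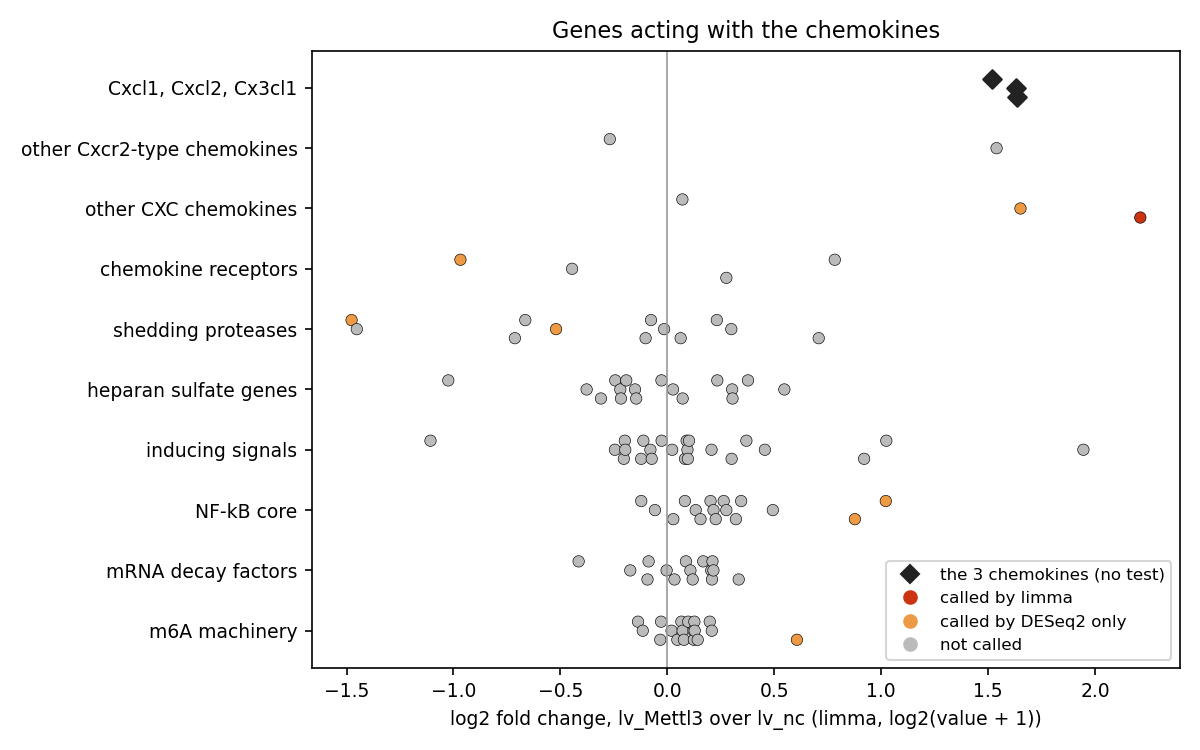
Log2 fold change of lv_Mettl3 over lv_nc (limma, log2(value + 1)) for the 3 chemokines (diamonds, shown with no test) and for the tested genes of each list (circles), coloured by the test that called them. The chemokines lie between 1.52 and 1.64, while most genes of the other lists lie near 0. Genes with few reads are plotted too, among them Cxcl3 at 1.54 with 4 reads in all.

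Markers of other cell types were read beside the chemokines. Of 9 neutrophil marker genes 2 were matched, with a summed level of 1.92 and 2.79 RPKM in lv_nc and 1.25 and 1.47 in lv_Mettl3. Of these, the granule protein gene Ngp had 21.2 to 47.1 normalized counts, and Mpo was at 0 in every library except lv_Mettl3 replicate 1 (2.12). Of 9 markers of macrophages and other leukocytes 4 were matched, summing to 1.72 and 2.27 RPKM in lv_nc and 1.32 and 2.67 in lv_Mettl3. Of these, Cd68 was the highest per length, with 36.0 ± 5.27 and 32.8 ± 14.9 (SD, n = 2). Endothelial markers, 5 of 8 matched, summed to 5.05 and 6.21 RPKM in lv_nc and 4.49 and 5.67 in lv_Mettl3, nearly all of it Egfl7. None of these genes was called by either test.

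Some fibroblast and smooth muscle markers were lower in lv_Mettl3. Of the 10 markers 7 were matched, with summed levels of 367 and 314 RPKM in lv_nc and 170 and 158 in lv_Mettl3. DESeq2 called 4 of 6 lower, the collagen genes Col1a1, Col1a2 and Col3a1 and the smooth muscle actin gene Acta2, and limma called 0 of 7, where DESeq2 called 1.07% of all genes lower. The other 3 were not called. Tagln, the most abundant per length, had 3778 and 1663 in lv_nc against 2160 and 2152 in lv_Mettl3, with overlapping groups. Postn had a log2 fold change of 0.04, and Pdgfra had 0.923 to 3.10 normalized counts across the libraries. Col3a1 was called by DESeq2 without each library in turn. Over those 4 settings the number called lower ranged from 1 to 4. The part of these genes in the chemokine difference was not tested.

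Cxcl1 and Cxcl2 are separated by 10.3 kb of chromosome 14 in the deposited coordinates, and no gene of the table overlapped Cxcl1, Cxcl2 or Cx3cl1. Within 250 kb of Cxcl1 or Cxcl2 lay 7 other genes, of which limma called 0 and DESeq2 called 0 of 3. The median log2 fold change of the 7 was 0.67, against 0.01 for all genes tested. That median is the limma value of Rassf6, whose DESeq2 log2 fold change was -0.31. Areg, Mthfd2l and Ereg, the 3 tested by DESeq2, had limma log2 fold changes of 0.39, 0.51 and 0.53. For 5 of the 7 both lv_Mettl3 libraries were above both lv_nc libraries, against 23.5% of all genes tested. For 0 both were below, against 21.5%. Epgn, Cxcl3, an unnamed transcript and Rassf6 had only 3, 4, 18 and 21 reads in all, so the median overstates what the better measured genes show. The nearest downstream gene, Mthfd2l, a mitochondrial folate enzyme gene, had 199 and 198 in lv_nc against 310 and 261 in lv_Mettl3 (limma adjusted p = 0.452). The EGF receptor ligand genes Areg and Ereg had 433 ± 51.1 and 13.4 ± 4.56 in lv_nc against 568 ± 100.0 and 19.8 ± 7.04 in lv_Mettl3, neither of them called. Another ligand gene of that family, Epgn, had 0 and 0 in lv_nc against 2.12 and 1.03 in lv_Mettl3, and Rassf6 had 0 to 11.7 across the libraries. An unnamed transcript on the opposite strand, 5.96 kb upstream of Cxcl1, had 0.977 and 1.85 in lv_nc against 8.48 and 7.23 in lv_Mettl3 (limma adjusted p = 0.433), too few reads for a DESeq2 call.

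Around Cx3cl1 on chromosome 19 lay 14 genes within 250 kb. Of the 13 tested by limma 0 were called, with a median log2 fold change of 0.01. DESeq2 called 1 of 11, lower, where 1.07% of all genes were called lower. This was the adhesion G protein-coupled receptor gene Adgrg1, 184 kb away, which had 202 and 368 in lv_nc against 89.1 and 99.2 in lv_Mettl3. It fell by 1.60 on the log2 scale (DESeq2 adjusted p = 0.000804, limma 0.381), and the call held only without lv_nc replicate 1 among the settings that leave out 1 library. The nearest gene, Ccl22, which encodes another chemokine, had 0 to 1.06 normalized counts. Ciapin1, the nearest gene with more than 2 reads, had 1466 and 1123 in lv_nc against 1509 and 1510 in lv_Mettl3. Adgrg3 (8.79, 4.62, 29.7 and 28.9 in the order lv_nc replicates 1 and 2, lv_Mettl3 replicates 1 and 2) and Adgrg5 (4.88, 1.85, 8.48 and 6.20) were not called. The other 9 tested genes were Ccdc102a, Dok4, Polr2c, Coq9, Arl2bp, Rspry1, Fam192a, RF00392 and Cpne2, with log2 fold changes from -0.19 to 0.46.

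**Figure D4:**
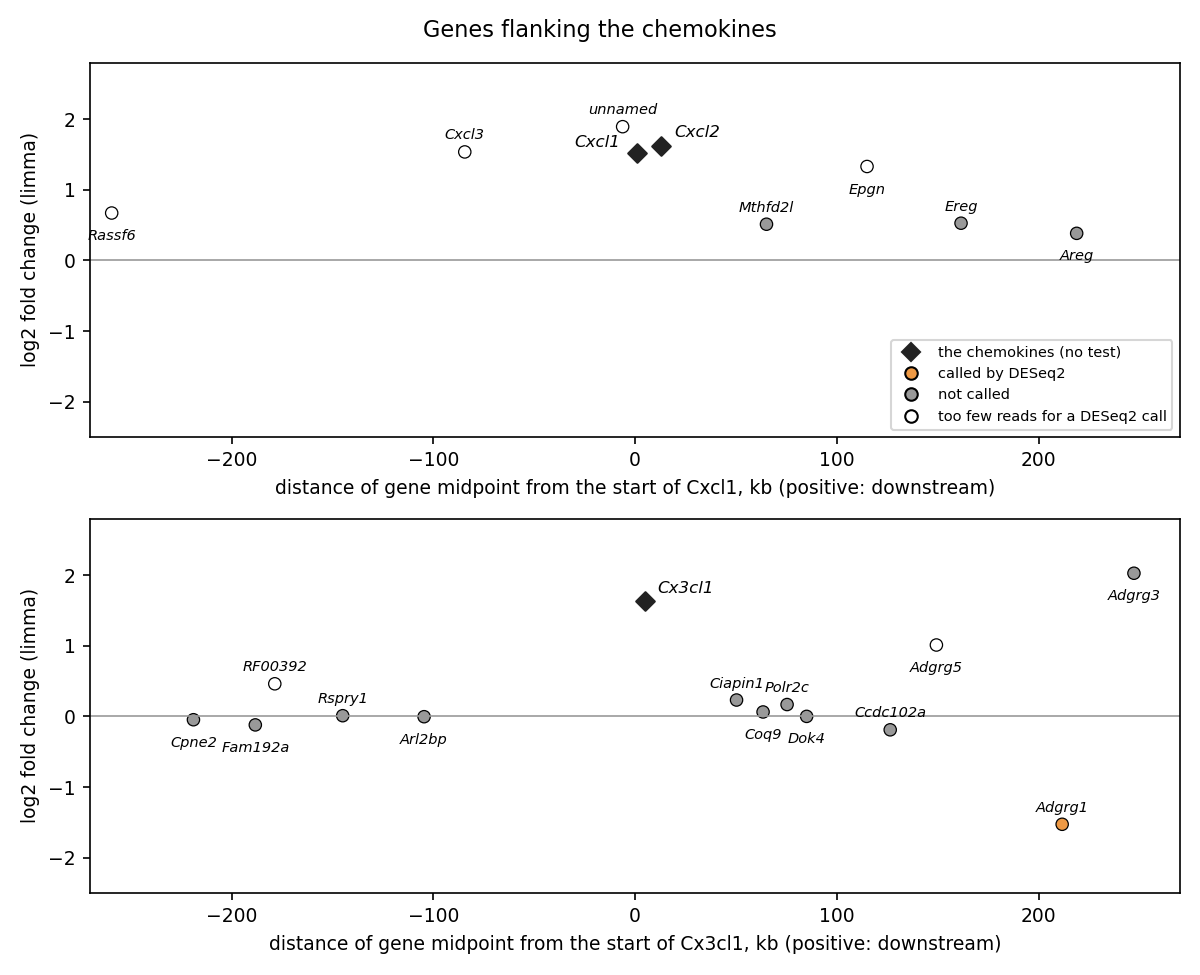
Log2 fold change of lv_Mettl3 over lv_nc (limma) against the distance in kb of each gene's midpoint from the start of Cxcl1 (upper) or Cx3cl1 (lower), for tested genes within 250 kb. Diamonds are the chemokines, open circles genes with too few reads for a DESeq2 call and filled circles the others, of which Adgrg1 alone (orange) was called.

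Profiles most like those of the chemokines were sought among 9179 other named protein-coding genes whose mean normalized count reached 100. The measure was the Euclidean distance between log2 profiles over the 4 libraries, each centred on its mean; it rests on 4 points and on the same libraries, and is a description. The 3 closest to Cxcl1 were the aldo-keto reductase gene Akr1b8 (distance 0.165), the aldehyde dehydrogenase gene Aldh3a1 (0.174) and Cyp26b1 (0.178), which encodes a retinoic acid hydroxylase. Akr1b8 had 3261 and 2478 in lv_nc against 7218 and 7726 in lv_Mettl3, with lv_nc replicate 1 above replicate 2 as for Cxcl1. The closest to Cxcl2 were the myosin light chain kinase gene Mylk (0.109), Ifi27l2b (0.178) and the kinase feedback inhibitor gene Spry1 (0.178). The closest to Cx3cl1 were the chemokine gene Ccl5 (0.181), the guanylate-binding protein gene Gbp5 (0.206) and the interferon-induced gene Ifit1 (0.275). Ccl5 had 395 and 610 in lv_nc against 1334 and 1417 in lv_Mettl3, with lv_nc replicate 2 above replicate 1 as for Cx3cl1. The median distance over all 9179 genes was 1.56 from Cxcl1, 1.66 from Cxcl2 and 1.73 from Cx3cl1. These medians largely restate each chemokine's own log2 fold change, which was known when it was chosen. A gene level across the 4 libraries lies about that far away, and close genes must have a similar fold change. Cxcl1 and Cxcl2 were 0.466 apart, with 19 genes closer to Cxcl1 than Cxcl2 was. Cxcl1 and Cx3cl1 were 0.794 apart, with 86 genes closer to Cxcl1. Cxcl2 and Cx3cl1 were 0.455 apart, with 13 genes closer to Cxcl2 than Cx3cl1 was and 11 closer to Cx3cl1 than Cxcl2 was. The distances 0.455 and 0.466 are nearly equal, and their order was not tested against counting error.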

How the data were processed

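RNA of 4 libraries of NRK-52E was sequenced. Tools named in the submitters' processing notes are CASAVA 1.4 and HISAT2; no counter, build, annotation or strand setting is named in the labels. Each library's deposited values are a signal, gene counts scaled by the authors with a single size factor: within 0.001 reads, 100% of values were whole multiples of the smallest positive value, which gave back whole reads. The authors' table also gives log2 fold changes and deposited p-values, and the file headers name no tool for them. Gene lengths are as deposited.

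The test was limma 3.58.1 with an intensity trend, on log2 values after adding 1. Genes reaching 1 in 2 or more libraries were tested, and p-values were adjusted over all of them by Benjamini-Hochberg (threshold 0.05). DESeq2 1.42.0 and edgeR 4.0.16 were run on the recovered reads as alternatives. DESeq2 calls are printed beside those of limma because limma called 3 genes. Scripts were tested on simulated data. Of 184 symbols in 15 gene lists, 142 were matched, 1 of them through a RefSeq synonym (GRCr8). Named genes were Cxcl1, Cxcl2 and Cx3cl1, called list genes (otherwise the most abundant per length), Cxcr1, Cxcr2, Cx3cr1 and related ligands, genes within 250 kb, and the 3 nearest profiles. Cxcl16, Adam10, Adam17, Il1b, Il1rn, Il17ra, Il1r1, Rela, Nfkbia, Zfp36, Lrp2, Aqp1, Cdh1, Mpo, Tagln, Postn and Pdgfra were named after their values were seen, and Mettl3 as the titled gene. The genes and lists were chosen with earlier results of these data known. R was 4.3.3 and Python 3.11.15.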

Additional observations from a re-analysis of the deposited data

How the results depend on the processing

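The log2 fold changes of Cxcl1, Cxcl2 and Cx3cl1 were above 0 in the 12 alternatives run for each, which is no sign of stability, since the groups do not overlap. They ranged from 1.31 to 1.73, from 1.49 to 1.77 and from 1.29 to 1.98, and the ends of each range came from leaving out 1 library. With 2 libraries per group such a shift cannot exceed the pooled SD between replicates. As TPM over the table, levels in lv_nc and lv_Mettl3 were 57.1 and 157 for Cxcl1, 12.0 and 36.3 for Cxcl2 and 6.79 and 19.8 for Cx3cl1, in the same order as by RPKM; the scale differs by construction. The number of genes called by limma, 3, was 0 with a pseudocount of 0.1, 5 with at least 1 CPM in all 4 libraries, 24 with robust empirical Bayes, and 0 to 0 without 1 library, which leaves 1 library in a group that is assumed to vary like the other. It was 5 with edgeR and 318 with DESeq2. At an unadjusted p under 0.05, limma had 908 genes higher and 808 lower and edgeR 1542 in all. The DESeq2 count, in alternatives chosen after seeing the data, ranged from 56 without lv_Mettl3 replicate 1 to 1547 without lv_nc replicate 1, and was 61 without lv_Mettl3 replicate 2 and 217 without lv_nc replicate 2. The cause was not tested.

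Libraries share only a replicate number. The correlation of same-numbered deviations from the group means was 0.33 over 10051 genes, and 2 pairs cannot show pairing. With a replicate block limma called 3 genes and DESeq2 272, and the log2 fold changes of the 3 chemokines were the same by construction. With 2 libraries per group and 98 to 129 reads of Cxcl2 and Cx3cl1 in the lowest libraries, depth limits the lv_nc values of these genes more than those of Cxcl1.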

Other observations

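Heparan sulfate proteoglycans hold secreted chemokines at the cell surface. Of 17 genes for their core proteins and for the enzymes that build or cut the chains, limma and DESeq2 each called 0. At an unadjusted limma p under 0.05, 3 were higher and 2 lower, against 10.5% of all genes tested in either direction. The most abundant per length was the core protein gene Sdc4, with 7466 and 6894 normalized counts in lv_nc and 8934 and 8791 in lv_Mettl3 (limma adjusted p = 0.452, DESeq2 adjusted p = 0.354). The list median was -0.15 in log2 fold change against 0.01 for all genes tested. Of 15 genes for proteins that bind or cut the unstable elements of chemokine mRNAs, limma and DESeq2 each called 0, and 0 had an unadjusted limma p under 0.05. The list median was 0.11. Zfp36, named after its values were seen, encodes tristetraprolin, which promotes decay of AU-rich transcripts. It had 512 and 475 in lv_nc against 548 and 595 in lv_Mettl3. Hnrnpd, the most abundant of this list per length, had 3460 and 3118 in lv_nc against 3259 and 3295 in lv_Mettl3.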
